A study of Homo sapiens with 8 samples.

Results

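The genes described here are 33 genes of the unfolded protein response and the integrated stress response, picked by symbol from the 18164 genes of a deposited expression table. They were sorted by role into 5 sensors and transducers, 10 genes of the ATF4 arm, 14 genes of the endoplasmic reticulum (ER) chaperone arm and 4 genes of ER-associated degradation. All 33 were found in the table, and all 33 passed the filter on low values, each above 1 TPM in all 8 tumors. The tumors grew from HCC1937, an established human triple-negative breast cancer cell line, after injection of 1000000 cells into the inguinal mammary fat pads of NCG mice. NCG is a NOD-derived strain in which Prkdc and Il2rg are disrupted, so the host lacks T, B and NK cells, and every tumor of both groups grew in it. Mice entered the treatment groups once tumors measured 100 to 150 mm3. The NMN group (n = 4 tumors) was given 500 mg/kg/day of nicotinamide mononucleotide, from which cells make NAD+, and the Vehicle group (n = 4) was given vehicle. The sources used here give neither the age of the mice nor the route and length of treatment. They do not tie tumors to separate mice either, so p-values cover only sample-to-sample spread, which may be technical. The comparison asks whether RNA levels of these genes differed with NMN.

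When unfolded proteins build up in the ER, 3 membrane sensors respond. IRE1 (ERN1) splices the XBP1 transcript so that it encodes an active transcription factor, ATF6 is cut in the Golgi to release another, and PERK (EIF2AK3) phosphorylates the translation factor eIF2alpha. XBP1 and ATF6 raise ER chaperones and degradation factors. Phosphorylated eIF2alpha lowers translation in general while it favors translation of ATF4, which turns on genes of amino acid supply, redox control and, under lasting stress, cell death. Other eIF2alpha kinases, such as the amino acid sensor GCN2 (EIF2AK4), feed the same ATF4 arm without ER stress. ATF4 is set largely by translation, IRE1 by splicing of XBP1 and ATF6 by cleavage, and none of these steps is read by a level per gene.

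Stretches of 11 promoters are shown because they hold the response elements through which each arm is known to be switched on, and the arms differed in which elements they held. Promoters were matched for 31 of the 33 genes (not for NUPR1 and PDIA3) in a RefSeq table on GRCh38.p14, each from 250 bases before a transcription start to 50 after it, with more than 1 start for some genes. The ER stress response element ERSE (CCAAT and CCACG with 9 bases between them, either strand), through which ATF6 acts together with the factor NF-Y, was held by 6 of 13 chaperone genes, by 0 of 9 genes of the ATF4 arm and by 0.0916% of all 27305 genes with a promoter, a gene counting once whichever of its promoters held it. Beside HSPA5, HSP90B1, CALR and CRELD2, shown here, PDIA6 and CANX held it, and so did XBP1. In capitals is the ERSE:
HSPA5 (chr9:125241344-125241493, minus strand): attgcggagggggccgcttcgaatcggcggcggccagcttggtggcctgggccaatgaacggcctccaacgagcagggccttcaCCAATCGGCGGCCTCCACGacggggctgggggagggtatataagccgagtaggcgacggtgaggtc
HSP90B1 (chr12:103930200-103930350, plus strand): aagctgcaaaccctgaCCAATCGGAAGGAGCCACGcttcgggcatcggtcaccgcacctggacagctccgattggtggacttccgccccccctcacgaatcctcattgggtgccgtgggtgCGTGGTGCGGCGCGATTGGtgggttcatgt
CALR (chr19:12938359-12938429, plus strand): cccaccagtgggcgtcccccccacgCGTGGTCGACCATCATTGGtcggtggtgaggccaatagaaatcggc
CRELD2 (chr22:49918524-49918594, plus strand): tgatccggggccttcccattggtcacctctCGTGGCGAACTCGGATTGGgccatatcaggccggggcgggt
XBP1 (chr22:28800570-28800649, minus strand): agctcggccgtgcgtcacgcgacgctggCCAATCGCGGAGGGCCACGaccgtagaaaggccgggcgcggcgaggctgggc

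HSP90B1 held 2 ERSE matches, the second on the other strand. ERSE-II (ATTGG and CCACG with 1 base between them, either strand), a related element with another spacing, was held by HYOU1, SDF2L1 and the degradation gene HERPUD1, and by 0.0696% of all genes. Together 8 of 13 chaperone genes held ERSE or ERSE-II. The 2 matches of HYOU1 were identical in sequence. In capitals is ERSE-II:
HYOU1 (chr11:119057260-119057415, minus strand): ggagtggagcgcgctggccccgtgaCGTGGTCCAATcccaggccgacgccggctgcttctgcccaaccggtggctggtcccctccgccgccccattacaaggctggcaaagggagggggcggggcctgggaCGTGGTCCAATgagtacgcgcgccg
SDF2L1 (chr22:21642087-21642152, plus strand): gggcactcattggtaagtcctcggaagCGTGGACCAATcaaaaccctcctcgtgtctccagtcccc
HERPUD1 (chr16:56931997-56932062, plus strand): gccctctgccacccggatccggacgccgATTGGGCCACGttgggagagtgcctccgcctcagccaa

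In the ATF4 arm the C/EBP-ATF response element (TGATGNAA, either strand), on which ATF4 pairs with C/EBP proteins, was held by 3 of 9 genes (ASNS, CHAC1 and CEBPG), by 0 of 13 chaperone genes, by HERPUD1 and by 4.46% of all genes. PPP1R15A held the cyclic AMP response element (TGACGTCA), as did 2.25% of all genes and no other of the 31. A match describes the letters in this window and does not show that a factor binds there. In capitals is the response element of each gene:
ASNS (chr7:97872438-97872508, minus strand): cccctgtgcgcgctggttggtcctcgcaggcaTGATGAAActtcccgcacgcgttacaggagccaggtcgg
CHAC1 (chr15:40953231-40953301, plus strand): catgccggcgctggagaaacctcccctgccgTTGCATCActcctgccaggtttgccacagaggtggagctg
PPP1R15A (chr19:48872331-48872401, plus strand): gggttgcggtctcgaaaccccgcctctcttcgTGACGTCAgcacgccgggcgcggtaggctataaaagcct

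Levels are given as TPM, a level per gene corrected for transcript length and scaled to the same total in every library. TPM keeps no record of sequencing depth, so the depth is unknown and no counting error can be given. Between 16451 and 16662 genes were above 0 in each library. Of the markers of breast epithelium, all 10 were detected, with KRT5 between 2817 and 3490 TPM in NMN tumors and between 3276 and 6488 TPM in Vehicle tumors. KRT8 lay between 707 and 909 TPM in NMN tumors and between 265 and 542 TPM in Vehicle tumors. The mean was higher under NMN for 5 of the 10 and lower for 5. Of 3 receptor genes, the progesterone receptor gene PGR was at 0 to 0.02 TPM, while ESR1 and ERBB2 were detected in every tumor. ESR1 lay between 3.37 and 6 TPM in NMN tumors and between 4.04 and 5.72 TPM in Vehicle tumors. ERBB2 lay between 80.9 and 120 TPM in NMN tumors and between 77.6 and 130 TPM in Vehicle tumors. Of 6 markers of plasma cells, which are secretory cells with a strong unfolded protein response, 4 were under 1 TPM in every tumor (JCHAIN, MZB1, TNFRSF17 and IRF4). Of the other 2, DERL3 reached 1.55 TPM, and SDC1, which epithelial cells also express, lay between 346 and 391 TPM in NMN tumors and between 329 and 441 TPM in Vehicle tumors. Of 7 leukocyte markers 2 were under 1 TPM in every tumor, PTPRC among them, while CD68 lay between 21.4 and 63.7 TPM in NMN tumors and between 22.7 and 47.3 TPM in Vehicle tumors. CD14 lay between 12.9 and 26.4 TPM in NMN tumors and between 15.3 and 27.4 TPM in Vehicle tumors. Of the 4 leukocyte markers that passed the filter, 1 had the higher mean under NMN, CD68, and 3 the lower. Of 5 endothelial markers 3 were under 1 TPM in every tumor, and the other 2 went in opposite directions. KDR reached 5.26 TPM under NMN and 2.60 TPM under Vehicle, and VWF reached 1.57 TPM under NMN and 2.17 TPM under Vehicle. Host mouse reads may enter the values of human genes, and their share was not tested. In bulk tumor RNA, fewer cells of a type and less RNA per cell cannot be told apart.

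The 33 genes spanned more than 2 orders of magnitude, and ER chaperones stood at the top. CALR, a calcium-binding chaperone of glycoproteins, was the highest at a mean of 985 TPM over the 8 tumors, ahead of HSPA5 (467 TPM), CANX (411 TPM) and HSP90B1 (393 TPM). ATF4 came next at 367 TPM. From HSPA5 down to ATF4, each neighbor in this order differed from the next by less than the larger of their SDs over tumors, which ran from 34.6 to 62.3 TPM. At the low end were the sensors ERN1 (7.02 TPM) and EIF2AK4 (11.8 TPM) and the glutathione-degrading enzyme gene CHAC1 (13.4 TPM). Together the 14 chaperone genes made up 0.333% ± 0.0284 of all TPM in NMN tumors and 0.332% ± 0.0261 in Vehicle tumors (SD, n = 4 each). The 10 genes of the ATF4 arm made up 0.115% ± 0.0085 in NMN tumors and 0.106% ± 0.0047 in Vehicle tumors.

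**Figure D1:**
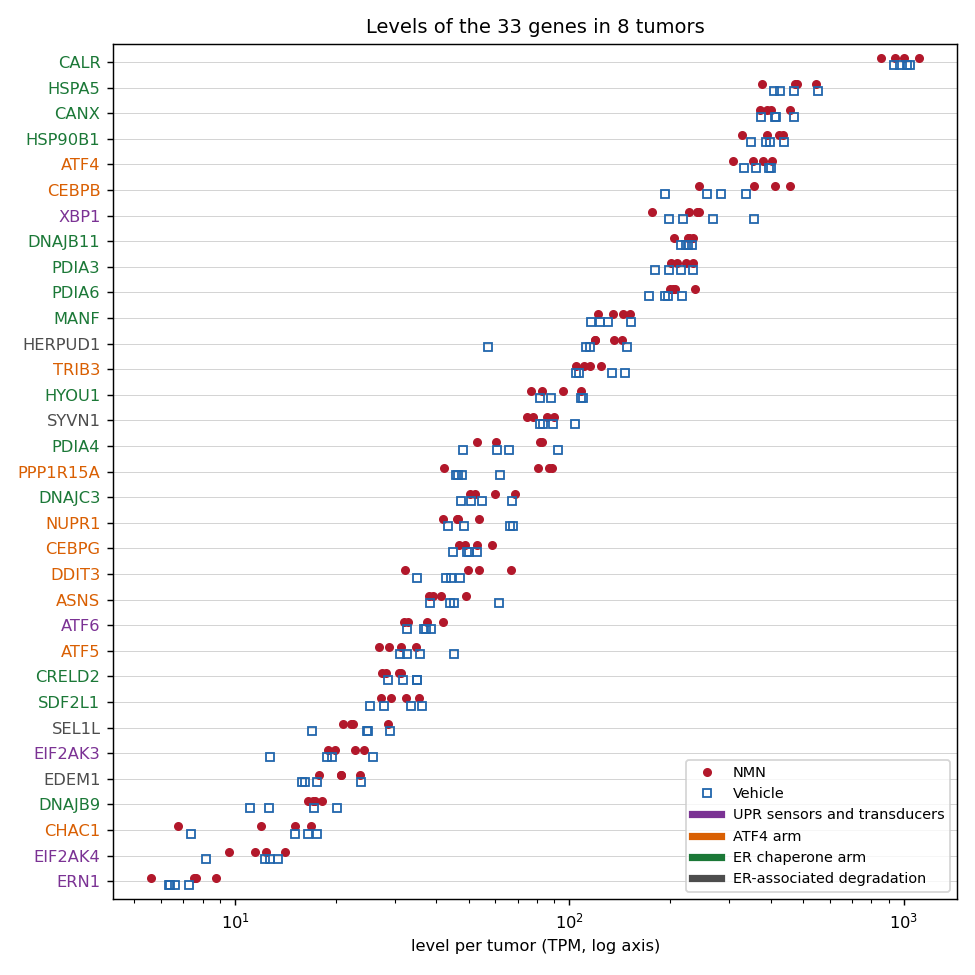
Level of each of the 33 genes in each tumor, in TPM on a log axis, ordered by the mean over 8 tumors, with NMN tumors as filled circles above Vehicle tumors as open squares. Label colors give the role. ER chaperones hold the top places, led by CALR at 985 TPM, and the values of both groups overlap for all 33 genes.

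None of the 33 genes differed between NMN and Vehicle tumors in the moderated linear model of limma fitted over 13358 genes on log2(TPM + 1), at an adjusted p under 0.05. Of all genes tested, 0 passed (percent called 0%), and 0.678 was the smallest adjusted p of the 33. PPP1R15A alone of the 33 had an unadjusted p under 0.05, as had 6.94% of all genes tested (927). In none of the 33 did the NMN values lie all above or all below the Vehicle values, patterns found in 2.08% and 0.966% of all genes (3.05% together). The mean was higher under NMN for 17 of the 33 and lower for 16, and higher for 51% of all genes. Log2 fold changes, NMN over Vehicle on the scale of log2(TPM + 1), ran from -0.24 (NUPR1) to 0.50 (PPP1R15A), with a median of 0.01, against a median of 0.00 over all genes. In simulated data with independent noise, 40.3% of genes changed 1.5-fold and 82.7% of genes changed 2-fold passed at this size of comparison, so changes under 2-fold could often not have been called.

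**Figure D2:**
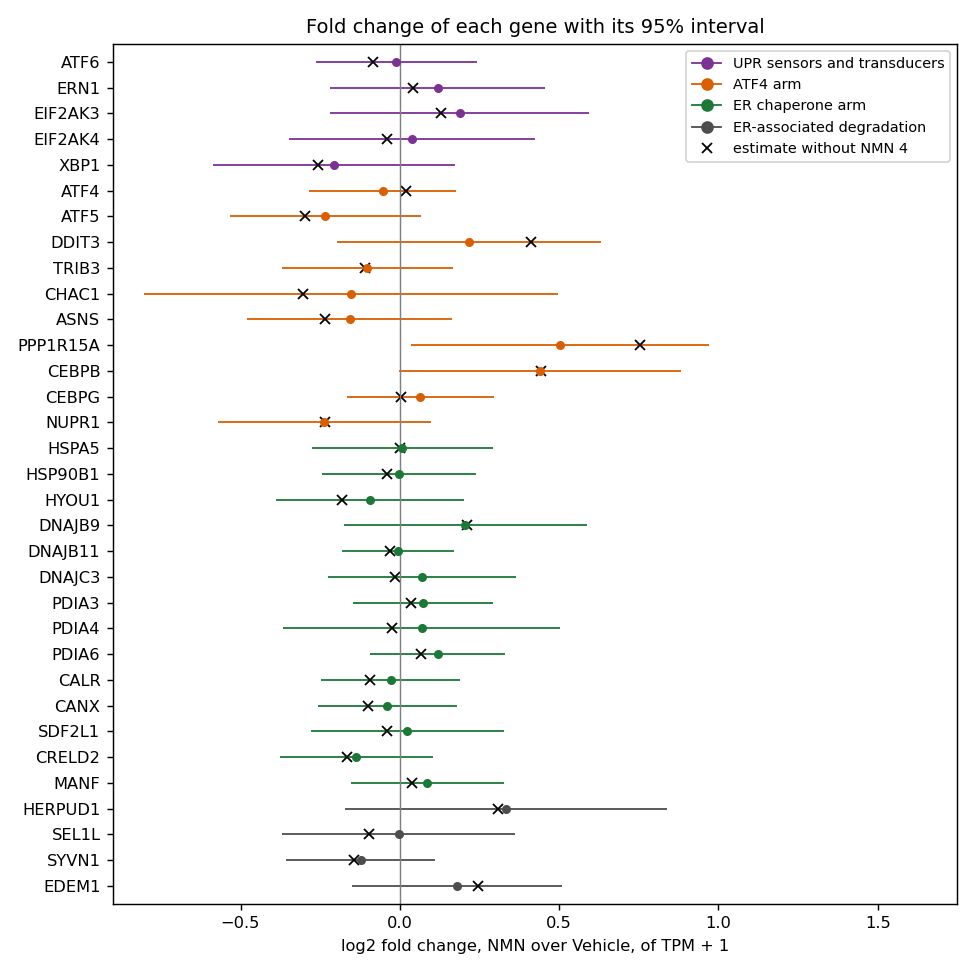
Log2 fold change of each gene, NMN over Vehicle, of TPM + 1, with its 95% interval from limma as a bar and the estimate without NMN 4 as a cross, grouped by role from top to bottom. The intervals of all 14 chaperone genes cover 0, and PPP1R15A, at 0.50, is the 1 gene whose interval lies above 0.

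In the ATF4 arm, genes went in both directions and the largest differences belonged to PPP1R15A and CEBPB. Of the 10 genes, 4 had the higher mean under NMN (DDIT3, PPP1R15A, CEBPB, CEBPG) and 6 the lower (ATF4, ATF5, TRIB3, CHAC1, ASNS, NUPR1), and 0 passed. The signs of ATF4 and CHAC1 changed in 1 and 2 of the 18 other settings. The median log2 fold change was -0.08 and the mean 0.03, which differ in sign.

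ATF4 itself, the transcription factor at the head of the arm (chromosome 22, 39519695 to 39522685, plus strand), was at 353, 402, 379 and 307 TPM in NMN 1 to 4, against 361, 333, 402 and 396 TPM in Vehicle 1 to 4. The groups overlapped almost fully, and the log2 fold change was -0.05 ± 0.11 (SE; adjusted p = 0.970, limma), with a 95% interval from -0.28 to 0.18, or -0.11 without NMN 2 and 0.02 without NMN 4. GENCODE names 4 pseudogenes of ATF4, and the sources used here do not say how reads shared with them were assigned.

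PPP1R15A encodes GADD34, the inducible partner of the phosphatase that removes the phosphate from eIF2alpha and so closes the loop (chromosome 19, 48872392 to 48876057, plus strand). It was at 86.7, 88.4, 80.7 and 42.0 TPM in NMN 1 to 4, against 46.5, 62.0, 45.9 and 47.6 TPM in Vehicle 1 to 4. The values of NMN 1 to 3 exceeded all Vehicle values, and that of NMN 4 was under all of them. The log2 fold change was 0.50 ± 0.21 (adjusted p = 0.678, exact permutation p = 0.143 two-sided, where the smallest p that 4 against 4 allow is 0.0286). Without NMN 4 it was 0.75 ± 0.12 and passed in limma (adjusted p = 0.0334), as the 1 gene of the 33 among 54 that did so, or 0.404% of all tested. Leaving out any other tumor gave values from 0.40 (without NMN 2) to 0.60 (without Vehicle 2), and none passed.

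DDIT3, which encodes the pro-apoptotic factor CHOP (chromosome 12, 57516588 to 57521737, minus strand), went the same way with a smaller difference. It was at 49.9, 66.9, 53.5 and 32.3 TPM in NMN 1 to 4, against 42.8, 47.0, 44.3 and 35.1 TPM in Vehicle 1 to 4. Again NMN 1 to 3 lay above every Vehicle tumor and NMN 4 below all of them. The log2 fold change was 0.22 ± 0.19 (adjusted p = 0.922, limma), and with 1 tumor left out it ran from 0.07 (without NMN 2) to 0.41 ± 0.14 (without NMN 4, adjusted p = 0.347). Without NMN 4, these 2 of the 33 genes had an unadjusted p under 0.05, as had 9.55% of all genes. The pattern of NMN 1 to 3 above all Vehicle tumors, looked for after the values were seen, was held by these 2 of the 33 and 3.84% of all genes, and the opposite pattern by 0 of the 33 and 6.15% of all genes. Exons of DDIT3 overlap those of MARS1 and MBD6 on the other strand, and without strand information their shared reads cannot be told apart. They also overlap those of AC022506.1 on the same strand, where strand information would not separate the reads. The levels of MBD6 and AC022506.1 are not given here. MARS1, a methionyl-tRNA synthetase, averaged 96.4 ± 12.1 TPM under NMN and 101 ± 5.45 TPM under Vehicle.

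CEBPB, a C/EBP factor that ATF4 induces and pairs with, was at 412, 243, 457 and 356 TPM in NMN 1 to 4, against 283, 338, 194 and 258 TPM in Vehicle 1 to 4. Here NMN 1, NMN 3 and NMN 4 lay above every Vehicle tumor, and NMN 2 lay inside their range. The log2 fold change was 0.44 ± 0.20 (adjusted p = 0.725, limma), or 0.29 without Vehicle 3 and 0.62 without NMN 2. NMN 4 thus stood with the other NMN tumors for CEBPB and apart from them for PPP1R15A and DDIT3.

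The tumors that were high in PPP1R15A and DDIT3 were also the ones with high hypoxia genes and low skeletal muscle and fibroblast markers. A list of 16 hypoxia response genes, summarized as the mean deviation from the 8-tumor mean of log2(TPM + 1), scored 0.32, 0.82, 0.78 and -0.38 in NMN 1 to 4 while Vehicle tumors scored between -0.53 and -0.14. In 14 of these 16 genes NMN 1 to 3 lay above every Vehicle tumor, and their summed level ran from 3544 to 7856 TPM in NMN tumors and from 2987 to 4411 TPM in Vehicle tumors. A list of 15 muscle markers scored from -2.56 to -2.40 in NMN 1 to 3, 1.03 in NMN 4 and 0.69 or more in every Vehicle tumor. Its summed level ran from 38.8 to 724 TPM in NMN tumors and from 497 to 2919 TPM in Vehicle tumors, in 14 of the 15 genes NMN 1 to 3 lay below every Vehicle tumor, and MYH2, MYH4, MYLPF and ACTN3 were at 0 TPM in at least 1 NMN tumor. Of 6 fibroblast markers 3 passed the filter, and they scored -0.66, -0.58, -0.29 and 0.32 in NMN 1 to 4, while Vehicle tumors scored between -0.06 and 0.56. In these 3, COL1A1, COL1A2 and COL3A1, NMN 1 to 3 lay below every Vehicle tumor, and the list summed to between 116 and 229 TPM in NMN tumors and between 185 and 281 TPM in Vehicle tumors, with LUM and DCN at 0.05 TPM or less. The part of hypoxia genes, muscle tissue or fibroblasts in the PPP1R15A and DDIT3 values was not tested.

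TRIB3, CHAC1 and ASNS had lower means under NMN, none past the test. ASNS, the asparagine synthetase gene, averaged 41.8 ± 4.99 TPM under NMN and 47.2 ± 10.0 TPM under Vehicle, with the highest value, 61.6 TPM, in Vehicle 4. CHAC1 was the most variable of the 33 genes within groups, at 15.1, 6.73, 12.0 and 16.8 TPM in NMN 1 to 4, against 17.5, 15.2, 7.39 and 16.5 TPM in Vehicle 1 to 4, with 1 low tumor in each group. TRIB3, a pseudokinase that ATF4 and CHOP induce, averaged 114 ± 8.49 TPM under NMN and 123 ± 20.8 TPM under Vehicle.

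ATF5, a factor whose translation is also favored by phosphorylated eIF2alpha, was at 31.3, 28.8, 26.9 and 34.8 TPM in NMN 1 to 4, against 32.6, 31.2, 35.7 and 45.3 TPM in Vehicle 1 to 4, with a log2 fold change of -0.23 ± 0.14 (adjusted p = 0.836, limma), or -0.12 without Vehicle 4. NUPR1, a small stress-induced nuclear protein, was at 41.9, 53.5, 46.1 and 46.4 TPM in NMN 1 to 4, against 66.4, 67.6, 48.3 and 43.3 TPM in Vehicle 1 to 4. Vehicle 1 and Vehicle 2 lay above every NMN tumor, Vehicle 4 close to the lowest of them, and the log2 fold change was -0.24 ± 0.15 (adjusted p = 0.866), from -0.35 without Vehicle 4 to -0.14 without Vehicle 2. CEBPG, another C/EBP partner of ATF4, averaged 51.7 ± 5.30 TPM under NMN and 49.3 ± 3.26 TPM under Vehicle.

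**Figure D3:**
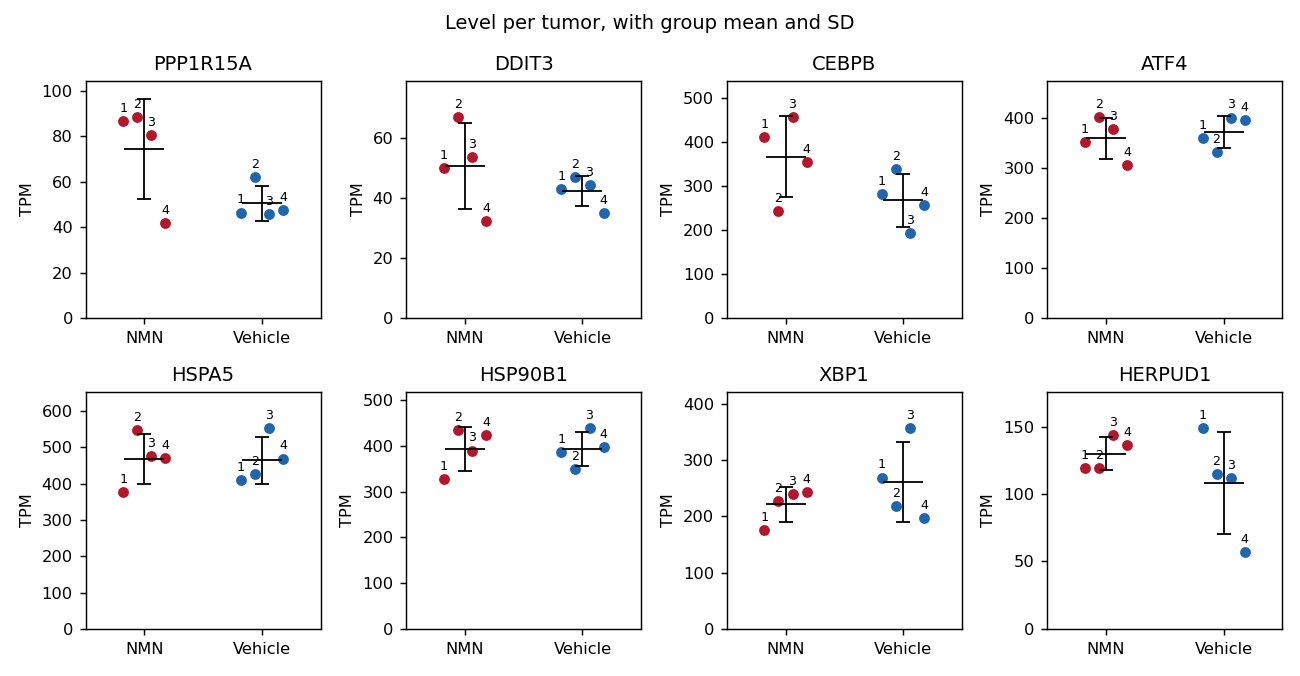
Level in TPM of 8 genes in each tumor, with the tumor number beside each point and the group mean and SD as bars, NMN at left and Vehicle at right, on axes that start at 0. For PPP1R15A and DDIT3 the points of NMN 1 to 3 lie above every Vehicle point and that of NMN 4 below them, whereas the groups lie side by side for ATF4, HSPA5 and HSP90B1.

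Among the sensors and transducers, 3 of 5 had the higher mean under NMN and 2 the lower, none passed, and the median log2 fold change was 0.04. XBP1 (chromosome 22, 28794555 to 28800597, minus strand) was at 176, 227, 240 and 243 TPM in NMN 1 to 4, against 269, 218, 357 and 198 TPM in Vehicle 1 to 4. Vehicle 3 held the highest value and NMN 1 the lowest, and the log2 fold change of XBP1 was -0.21 ± 0.17 (adjusted p = 0.921, limma), from -0.33 without Vehicle 4 to -0.04 without Vehicle 3. The level per gene counts spliced and unspliced XBP1 together.

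EIF2AK3, the PERK gene, was at 22.8, 19.0, 19.9 and 24.4 TPM in NMN 1 to 4, against 25.8, 19.5, 18.9 and 12.7 TPM in Vehicle 1 to 4. Its log2 fold change was 0.19 ± 0.19 (adjusted p = 0.944), from 0.01 without Vehicle 4, the 1 low tumor, to 0.34 without Vehicle 1. ERN1 was at 7.63, 5.62, 7.53 and 8.74 TPM in NMN 1 to 4, against 7.26, 6.35, 6.39 and 6.61 TPM in Vehicle 1 to 4. NMN tumors held both its highest and its lowest value, and the log2 fold change was 0.12 ± 0.15 (adjusted p = 0.957), from 0.04 without NMN 4 to 0.23 without NMN 2.

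ATF6 was at 37.6, 32.1, 32.9 and 42.0 TPM in NMN 1 to 4, against 37.2, 32.7, 36.8 and 38.5 TPM in Vehicle 1 to 4. Its means were nearly equal, 36.1 ± 4.58 TPM under NMN and 36.3 ± 2.48 TPM under Vehicle, and the log2 fold change was -0.01 ± 0.12 (adjusted p = 0.996, limma), from -0.08 without NMN 4 to 0.04 without NMN 2. EIF2AK4, the GCN2 gene, averaged 11.9 ± 1.86 TPM under NMN and 11.7 ± 2.37 TPM under Vehicle.

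Of the 4 roles, the ER chaperone arm showed the smallest differences between groups by their median size. Means under NMN were higher for 8 and lower for 6 of its 14 genes, 0 passed, and log2 fold changes ran from -0.14 (CRELD2) to 0.20 (DNAJB9), with a median of 0.02. The median size of the difference, regardless of sign, was 0.07 on the log2 scale in this arm, 0.19 in the ATF4 arm and 0.11 over all genes tested.

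HSPA5 encodes BiP, the Hsp70 chaperone of the ER that also holds the sensors inactive (chromosome 9, 125234853 to 125241330, minus strand). It was at 377, 547, 478 and 472 TPM in NMN 1 to 4, against 410, 426, 554 and 470 TPM in Vehicle 1 to 4. Each group had tumors near both ends, and the log2 fold change was 0.01 ± 0.13 (adjusted p = 0.998, limma), with a 95% interval from -0.28 to 0.29. Over the settings tried, its sign changed in 7 of 18, so no direction is given for HSPA5.

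The other large chaperones had similar values in both groups. HSP90B1, the ER form of Hsp90, averaged 394 ± 47.9 TPM under NMN and 393 ± 36.7 TPM under Vehicle. CALR averaged 977 ± 108 TPM under NMN and 993 ± 48.8 TPM under Vehicle, and CANX, its membrane-bound relative, 406 ± 37.1 TPM under NMN and 417 ± 39.6 TPM under Vehicle. HYOU1, a nucleotide exchange factor for BiP, averaged 90.9 ± 13.9 TPM under NMN and 97.0 ± 14.1 TPM under Vehicle.

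Of the protein disulfide isomerases, PDIA6 was at 207, 204, 200.2 and 237 TPM in NMN 1 to 4, against 196, 173, 217 and 193 TPM in Vehicle 1 to 4, a log2 fold change of 0.12 ± 0.10 (adjusted p = 0.919, limma), or 0.06 without Vehicle 2. PDIA3, which acts on glycoproteins with CALR and CANX, averaged 217 ± 14.5 TPM under NMN and 207 ± 23.2 TPM under Vehicle. PDIA4 averaged 69.5 ± 15.1 TPM under NMN and 66.8 ± 18.7 TPM under Vehicle and was the most variable gene of the arm, with values from 47.9 TPM in Vehicle 2 to 92.5 TPM in Vehicle 3.

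Among the J-domain co-chaperones of BiP, DNAJB9 was at 17.3, 18.2, 16.6 and 17.1 TPM in NMN 1 to 4, against 20.2, 17.3, 11.1 and 12.6 TPM in Vehicle 1 to 4. Its NMN values lay close together inside the Vehicle range, and the log2 fold change was 0.20 ± 0.17 (adjusted p = 0.922), from 0.07 without Vehicle 3 to 0.34 without Vehicle 1. DNAJB11 had the smallest spread of the 33 genes, with 223 ± 12.3 TPM under NMN and 224 ± 6.80 TPM under Vehicle. DNAJC3, which also inhibits PERK, averaged 57.8 ± 8.36 TPM under NMN and 55.1 ± 8.59 TPM under Vehicle.

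The small ER stress-induced genes differed little as well. CRELD2, an ER protein with disulfide isomerase activity, was at 31.0, 27.5, 28.3 and 31.4 TPM in NMN 1 to 4, against 28.7, 31.7, 35.01 and 35.07 TPM in Vehicle 1 to 4, a log2 fold change of -0.14 ± 0.11 (adjusted p = 0.916, limma). MANF, a secreted protein of the ER that binds BiP, was at 121, 135, 145 and 152 TPM in NMN 1 to 4, against 116, 130.4, 153 and 123 TPM in Vehicle 1 to 4, with a log2 fold change of 0.09 ± 0.11 (adjusted p = 0.957). For CRELD2, Vehicle 2, 3 and 4 lay above every NMN tumor and Vehicle 1 inside the NMN range, whereas the groups overlapped over most of their range for MANF. With 1 tumor left out, the log2 fold change of CRELD2 lay between -0.19 (without Vehicle 1) and -0.10 (without Vehicle 4), that of MANF between 0.03 (without Vehicle 1) and 0.16 (without Vehicle 3). SDF2L1, which works with DNAJB11 on BiP clients, averaged 31.1 ± 3.63 TPM under NMN and 30.8 ± 5.09 TPM under Vehicle.

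In ER-associated degradation, the route by which misfolded proteins leave the ER, 2 of 4 genes had the higher mean under NMN, 2 the lower, and none passed. HERPUD1, an adaptor of the retrotranslocation complex, was at 119, 119.5, 144 and 136 TPM in NMN 1 to 4, against 149, 115, 112 and 57.1 TPM in Vehicle 1 to 4. Vehicle 4 lay far below every other tumor, and the log2 fold change of HERPUD1 was 0.33 ± 0.23 (adjusted p = 0.884, limma), from 0.06 without Vehicle 4 to 0.51 without Vehicle 1.

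EDEM1, which hands mannose-trimmed glycoproteins to degradation, was at 23.7, 20.7, 20.7 and 17.8 TPM in NMN 1 to 4, against 15.9, 16.2, 17.6 and 23.7 TPM in Vehicle 1 to 4. Its log2 fold change was 0.18 ± 0.15 (adjusted p = 0.922), with Vehicle 4 as high as the highest NMN tumor, and it was 0.30 without Vehicle 4 and 0.11 without NMN 1. The ubiquitin ligase gene SYVN1 averaged 81.9 ± 6.97 TPM under NMN and 89.5 ± 10.1 TPM under Vehicle, and that of its partner SEL1L 23.6 ± 3.47 TPM under NMN and 23.9 ± 5.05 TPM under Vehicle.

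**Figure D4:**
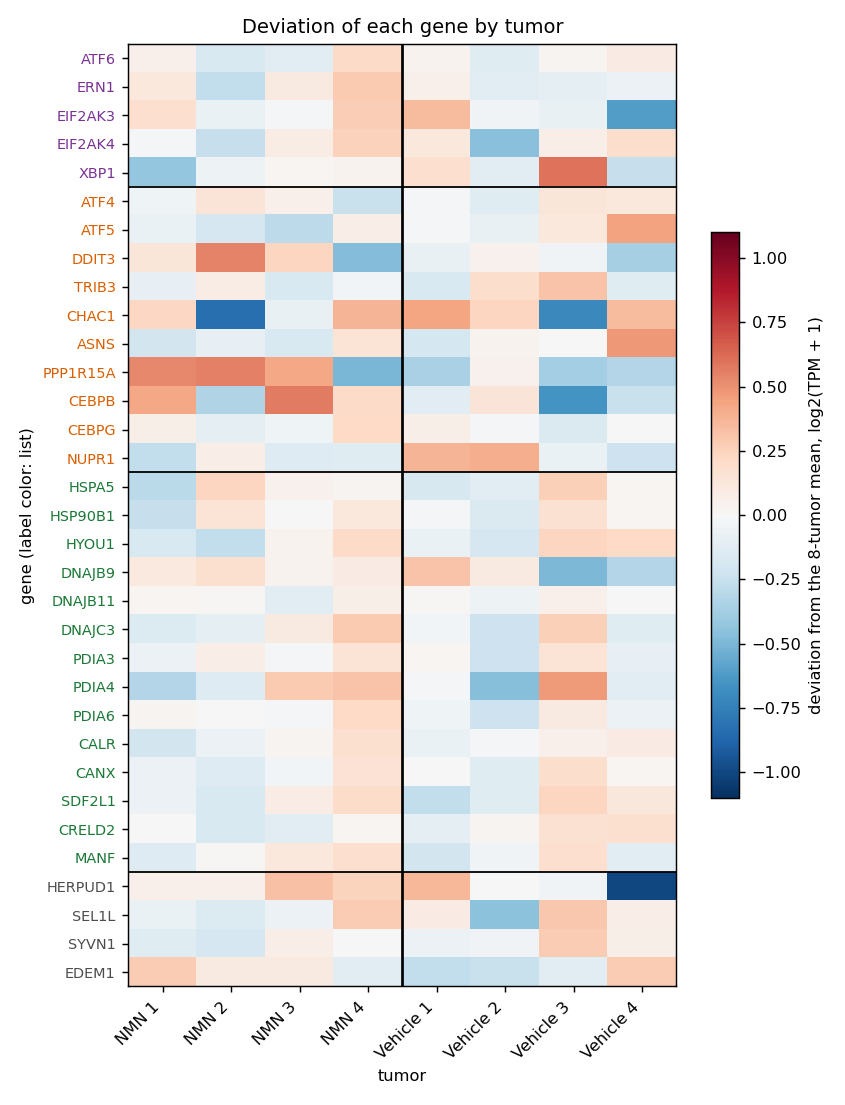
Deviation of each gene from its 8-tumor mean of log2(TPM + 1), with genes as rows grouped by role and tumors as columns, NMN left of the line and Vehicle right of it. NMN 4 and Vehicle 3 are high over most chaperone genes, as they are for 76.9% and 67.0% of all genes, and the strongest cells of the ATF4 arm belong to different tumors from gene to gene.

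Set against each other, the arms differed in spread more than in direction. The SD within groups of log2(TPM + 1) had a median of 0.24 in the ATF4 arm, from 0.12 (CEBPG) to 0.53 (CHAC1), and of 0.16 in the chaperone arm, from 0.06 (DNAJB11) to 0.35 (PDIA4). Over tested genes with a mean of at least 10 TPM this median was 0.19. A small spread was not particular to the chaperone arm. In the further lists described below, the median was 0.16 for ER folding, 0.13 for translocation and export and 0.13 for degradation genes. For further ATF4 targets it was 0.23. The arms also differed in level, with a median of the gene means of 51.1 TPM in the ATF4 arm and 169 TPM in the chaperone arm. The highest tumor stood a median of 1.65-fold over the lowest among ATF4 arm genes and 1.35-fold among chaperone genes. The difference in spread was not tested.

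Chaperone genes were high or low together in some tumors of both groups. In NMN 4, Vehicle 3 and Vehicle 2 much of the table was high or low with them. All 14 were above their 8-tumor mean in NMN 4, as were 76.9% of all genes tested. In Vehicle 3 it was 13 of 14 and 67.0% of all genes, and in Vehicle 2 it was 2 of 14 and 28.2% of all genes. NMN 1 and Vehicle 1 differed from that order, each with 4 of 14 chaperone genes above their mean, against 50.9% and 58.7% of all genes. NMN 2 differed the other way, with 7 of 14 and 30.5% of all genes. NMN 4 or Vehicle 3 held the highest value of 12 of the 14 genes (4 and 8). The chaperone score, the mean deviation over the 14 genes, was -0.11, -0.03, 0.03 and 0.16 in NMN 1 to 4 and -0.05, -0.13, 0.14 and -0.01 in Vehicle 1 to 4. Degradation genes scored 0.03, -0.05, 0.11 and 0.10 in NMN 1 to 4 and 0.03, -0.18, 0.10 and -0.14 in Vehicle 1 to 4. The further lists of ER genes had the same high and low tumors: other ER folding genes scored 0.10 in NMN 4, 0.14 in Vehicle 3 and -0.11 in Vehicle 2, and other degradation genes 0.12, 0.11 and -0.11 in these tumors. NMN 4 and Vehicle 3 each had the highest muscle marker score of its group, and the part of muscle tissue or of the shift over all genes in the chaperone values was not tested.

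The ATF4 arm showed no such shared order. Its score was 0.07, -0.01, 0.04 and -0.04 in NMN 1 to 4 and -0.01, 0.09, -0.15 and 0.01 in Vehicle 1 to 4. In each tumor between 3 and 7 of the 10 genes lay above their mean. It was 5 in NMN 4, 3 in Vehicle 3 and 7 in Vehicle 2, where 76.9%, 67.0% and 28.2% of all genes did. The count was closer to the share of all genes in NMN 1 (5, and 50.9%) and Vehicle 4 (4, and 46.6%). By the score, the tumors with the highest chaperone scores, NMN 4 and Vehicle 3, had the lowest ATF4 scores. Those with the lowest chaperone scores, NMN 1 and Vehicle 2, had the highest. With the median deviation in place of the mean, NMN 4 had the second highest ATF4 value (0.02, against 0.05 in Vehicle 2), ahead of NMN 1 (0.01). NMN 3 and Vehicle 4 (both -0.07) lay below Vehicle 3 (-0.06). Vehicle 2 stayed highest, but this order did not hold in full at either end.

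The score of the ATF4 arm minus that of the chaperone arm was 0.18, 0.01, 0.01 and -0.19 in NMN 1 to 4 and 0.04, 0.22, -0.29 and 0.02 in Vehicle 1 to 4. All NMN values lay inside the wider range of the Vehicle values. The difference of the arms' median log2 fold changes was -0.09, and it was 0.05 with library weights. It depended on the use of medians, as the mean log2 fold changes were nearly equal, 0.03 in the ATF4 arm and 0.02 in the chaperone arm. With DDIT3 and HSPA5 standing for the arms, log2(TPM + 1) of DDIT3 minus that of HSPA5 was -2.89, -3.01, -3.13 and -3.83 in NMN 1 to 4 and -3.23, -3.15, -3.62 and -3.70 in Vehicle 1 to 4. The group means differed by 0.21 (exact permutation p = 0.371, two-sided). With 1 tumor left out they differed by 0.10 (without NMN 1, exact permutation p = 0.686) to 0.41 (without NMN 4, exact permutation p = 0.0571). The last of these is the smallest p that this test allows with 1 tumor left out, so it could not fall under 0.05.

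**Figure D5:**
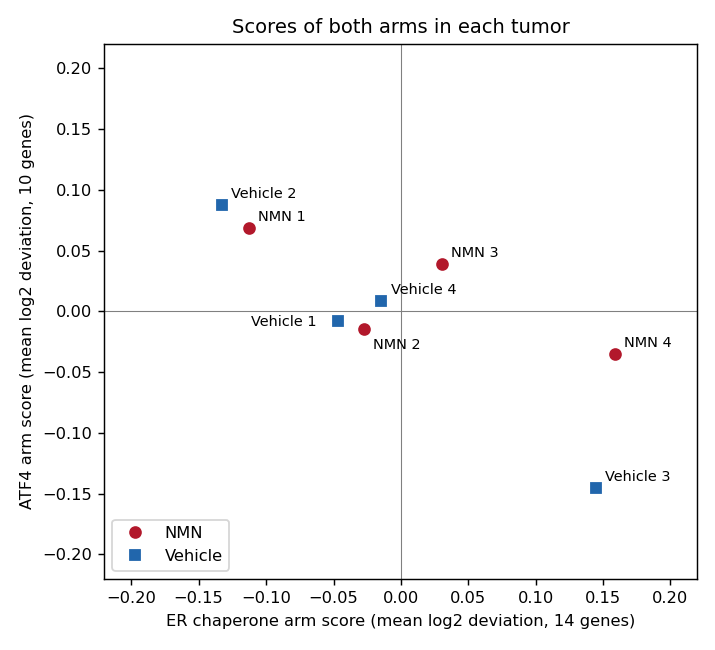
Score of the ATF4 arm against that of the ER chaperone arm in each tumor, each score being the mean deviation of log2(TPM + 1) from the 8-tumor mean over 10 and 14 genes. NMN and Vehicle tumors lie intermingled, with NMN 4 and Vehicle 3 at the right, at chaperone scores of 0.16 and 0.14.

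Other genes of the pathway gave the same count. Of 129 further genes in 5 lists, 128 were tested (INHBE, under 1 TPM in every tumor, was not), and 0 passed, with 53 higher and 75 lower means in NMN tumors. At an unadjusted p under 0.05 stood 5 with the higher and 1 with the lower mean, where 4.79% and 2.15% of all genes did. The NMN values lay all above the Vehicle values in 2 of the 128 (ATF3 and EDEM2) and all below in 1 (FKBP11). These patterns were found in 2.08% and 0.966% of all genes. The median log2 fold change per list lay between -0.05 (other ER folding genes) and 0.00 (translocation and export).

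Among 35 tested further targets of ATF4, 15 had the higher and 20 the lower mean in NMN tumors. ATF3, a stress-induced partner of the ATF4 network, was at 14.9, 16.7, 15.2 and 12.4 TPM in NMN 1 to 4, against 9.53, 10.8, 9.43 and 9.22 TPM in Vehicle 1 to 4. The groups did not overlap, with NMN 4 also above each Vehicle tumor, and the log2 fold change of ATF3 was 0.55 ± 0.13 (adjusted p = 0.272, limma). VLDLR, a lipoprotein receptor, averaged 10.8 ± 4.21 TPM under NMN and 5.32 ± 0.953 TPM under Vehicle, and STC2, a secreted glycoprotein, 24.4 ± 8.10 TPM under NMN and 15.2 ± 4.62 TPM under Vehicle (adjusted p = 0.396 for VLDLR and 0.603 for STC2, limma). In both, NMN 1 to 3 lay above every Vehicle tumor and NMN 4 (5.89 and 15.3 TPM) inside the Vehicle range. Of the 35, NMN 1 to 3 lay above every Vehicle tumor in 4 and below in 3, against 3.84% and 6.15% of all genes.

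Means were higher for 10 and lower for 18 of 28 further ER folding genes. FKBP11, a peptidyl-prolyl isomerase of secretory cells, was at 30.8, 29.7, 33.7 and 36.9 TPM in NMN 1 to 4, against 37.6, 39.5, 49.9 and 43.0 TPM in Vehicle 1 to 4, with no overlap between groups, and its log2 fold change was -0.36 ± 0.12 (adjusted p = 0.473, limma). Among 28 translocation and export genes, 14 to 14, the channel subunit gene SEC61G averaged 832 ± 113 TPM under NMN and 689 ± 46.8 TPM under Vehicle (adjusted p = 0.641). Means were higher for 9 and lower for 13 of 22 further degradation genes, and EDEM2, a relative of EDEM1, averaged 23.2 ± 1.21 TPM under NMN and 20.0 ± 2.33 TPM under Vehicle, without overlap, a log2 fold change of 0.21 ± 0.12 that did not pass. Of 15 eIF2alpha kinases and partners 5 had the higher and 10 the lower mean. The adaptor gene NCK1, whose product binds PERK, averaged 75.7 ± 4.32 TPM under NMN and 60.0 ± 12.0 TPM under Vehicle (adjusted p = 0.584).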

How the data were processed

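RNA was measured in 8 tumors, 4 per group, with groups taken from the sample titles. The authors deposited 1 table of TPM per gene, 1 column per tumor, in TPM per the file headers. GRCh38.p13 and the tools RSEM 1.2.8, HISAT2 2.1.0 and Bowtie2 2.2.5 appear in the submitters' processing notes, without roles. Strandedness and the handling of mouse reads are not given in the sources used here. Each library sums to 1000000 TPM, so depth is unknown and only the spread between tumors gives precision.

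Genes with TPM of at least 1 in at least 4 of 8 libraries (13358) were tested with limma 3.58.1 in R 4.3.3 on log2(TPM + 1), which understates changes of low genes, with a mean-variance trend, no term but group, a two-sided test and Benjamini-Hochberg adjustment over all tested genes at 0.05. Fold changes carry their standard error and TPM levels the SD (n = 4). Exact permutation tests used SciPy 1.17.1. The model was tested on 10 simulated data sets of 13358 genes with 200 changed, by 1.5-, 2- or 4-fold, none of them among the lowest genes. No test was run over a list, whose genes are described by counts and medians.

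The genes, lists and tests were chosen with earlier results of these data known. Full values go to ATF4, DDIT3, XBP1, ATF6, ERN1, EIF2AK3 and HSPA5, to the 4 genes of either arm and the 2 of the other lists with the smallest unadjusted p, and values of up to 3 genes of each pathway list. CHAC1 was added after its values were seen, for its spread, and MARS1 for its overlap with DDIT3. Positions are from GENCODE 29 on GRCh38. By that annotation 4 of the 33 genes have named pseudogene copies and 16 share exon sequence with a neighboring gene, which leaves their values less certain. The alternatives changed the pseudocount (0.1 or 5), the filter (absent, or 5 TPM), the scaling (median of ratios or quantiles) and the variance model (untrended, robust, or weighted by library), blocked on replicate number, or left out each tumor in turn.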

Additional observations from a re-analysis of the deposited data

Results flagged for a closer look

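PPP1R15A stood apart in 1 tumor of each group. NMN 4, at 42.0 TPM, lay far below the other NMN tumors (80.7 to 88.4 TPM), and Vehicle 2, at 62.0 TPM, far above the other Vehicle tumors (45.9 to 47.6 TPM), with a gap to the nearest neighbor of 0.877 (NMN) and 0.882 (Vehicle) of the group's range on the log2 scale. Such gaps were looked for in 76 groups of 4 values, and these 2 were the only ones flagged. Chance alone flags about 5% of groups, which would be more than were found.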

How the results depend on the processing

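The number of genes that passed over the whole table was 0 in the reported fit, 54 with library weights, 2 with the replicate block, and from 0 to 54 with 1 tumor left out, the highest without NMN 4 and 1 without Vehicle 3. Of the 33 genes described here 0 passed under every setting except without NMN 4, where 1 did, PPP1R15A, so with 1 tumor left out the count ran from 0 to 1. The cause was not tested. The replicate numbers are shared by the groups, and the values gave no sign that these numbers pair the tumors. Deviations from the group means correlated between -0.12 and 0.03 over the 4 same-numbered pairs, and 0 of 8 samples correlated best with its own number. So few pairs cannot exclude a shared factor in the design. With the replicate block the DDIT3 minus HSPA5 difference stayed at 0.21 (exact sign-flip permutation p = 0.25). With 4 pairs this test cannot give a p under 0.05. The median log2 fold change of the ATF4 arm ran from -0.10 (quantile normalization) to -0.01 (library weights) and that of the chaperone arm from -0.06 (library weights) to 0.09 (without NMN 1). In 42 of 594 recomputed values of the 33 genes the sign changed, in 14 genes, none of which had a log2 fold change larger than its SE. The unknown depth limits what can be said of ERN1, EIF2AK4 and CHAC1, the lowest of the 33.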
